A study of Homo sapiens with 6 samples.

Results

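CREB5 encodes a basic leucine zipper (bZIP) transcription factor. Its accessible chromatin, and that of 6 relatives (CREB1, CREM, ATF1, ATF2, ATF7 and ATF4), was followed by ATAC-seq in A375 cells, an established human melanoma cell line. A peak belonged to a gene when its centre lay inside the gene body in GENCODE release 44, or when it lay in no protein-coding gene and the nearest protein-coding start site was that of the gene. This rule gave 67 of the 152800 peaks in the atlas: 23 for CREB5, 8 for CREB1, 9 for CREM, 5 for ATF1, 5 for ATF2, 13 for ATF7 and 4 for ATF4. All 67 were 502 bp wide and all passed the filter on low counts. The genes were chosen with the measured differences of these peaks between the groups in view, so their fold changes and calls are given as a description, without p-values.

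The experiment compared 3 libraries of A375 cells transduced with an empty vector (EV) with 3 libraries of A375 cells that stably overexpress HMGB2 (HMGB2OE), a chromatin-binding high mobility group protein. Both lines were made with lentivirus and drug selection. The libraries are technical replicates of an experiment done once, so the SDs and standard errors below describe the spread between libraries and not between independent cultures. In ATAC-seq the Tn5 transposase cuts accessible DNA, and the count in a peak rises with accessibility. The assay averages over a cell population, so a site open in fewer cells and a site less open in each cell cannot be told apart. Counts in peaks summed to between 26910189 (EV replicate 1) and 45645294 (EV replicate 2) per library. Within a group, no pair of libraries agreed within sampling noise (chi-square divided by its degrees of freedom from 2.50 to 4.66), so all 6 were kept as separate. Both peaks over coding exons of HMGB2 were called higher in HMGB2OE libraries (log2 fold changes 1.16 ± 0.27 and 1.67 ± 0.25, SE), and the counts do not separate the endogenous gene from the construct. Taken by distance to a start alone, promoter peaks of the melanocyte lineage genes SOX10, MITF and PMEL stood at the 93.4th percentile of all peaks or above. MLANA, TYR, TYRP1 and DCT had no promoter peak. PTPRC, CD3E, ALB, HBB and PECAM1, which mark other cell types, had none either, and EPCAM, KRT5 and COL1A1 had 1 each, at the 71.7th, 30.7th and 91.8th percentile and none of them called. Over the 85 peaks assigned to the melanocyte lineage genes, 0 were called higher and 2 lower (2.35%), beside 1.87% and 1.44% of all tested peaks. Of these 85, 37.6% had a log2 fold change above 0, beside 49.2% of all tested peaks. The PMEL promoter peak (means of 3797 in EV and 3739 in HMGB2OE libraries) is not among these 85. Their highest mean count was 1295, so by the rule that peak was assigned to another gene. Over the 87 peaks assigned to the markers of other cell types, 1 was called higher and 7 lower (8.05%), beside the same 1.87% and 1.44%. Of those lower calls, 5 were assigned to PTPRC, some inside the gene and some intergenic. The intergenic ones lay 240846, 242180 and 483940 bp from the nearest protein-coding start. The part of these differences in the values below was not tested.

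The 7 proteins fall into 3 branches of the bZIP superfamily, in which a leucine zipper joins a pair of proteins and the adjoining basic region grips DNA. CREB1, CREM and ATF1 are phosphorylated by protein kinase A and related kinases when cAMP rises, recruit the coactivators CBP and p300, and bind the cAMP response element (CRE). ATF2, ATF7 and CREB5 form a second branch, are activated through stress kinases in the case of ATF2 and ATF7, and can pair with JUN proteins, the partners of FOS in AP-1. ATF4 is translated when cells are under amino acid or endoplasmic reticulum stress, and pairs with C/EBP proteins on composite C/EBP-ATF elements. In the melanocyte lineage, cAMP signalling through CREB is known to drive transcription of MITF.

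Words of 3 kinds were searched in the hg38 sequence of each peak on both strands: the full CRE TGACGTCA, the AP-1 words TGACTCA and TGAGTCA, and the C/EBP-ATF word TGATGCAA. No word contains another. A match is a description of the letters and not of bound protein. The full CRE occurred in 3 of the 67 peaks, in 0.760% of all peaks and in 2.62% of peaks within 1 kb of a protein-coding start. The windows of 30 bases around these CREs are shown because they hold the full form of the element that CREB proteins recognise. Other forms of the element, and sequence outside the peaks, were not searched. Capitals mark the CRE, and each is the plus strand of hg38, 5′ to 3′.

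CREB5 promoter (CREB5-206), chr7:28409297-28409326: ggaatcccacgTGACGTCAccgggggggtg
CREM internal promoter (CREM-240), chr10:35195841-35195870: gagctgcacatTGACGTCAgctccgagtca
ATF1 intron 2, chr12:50785081-50785110: cgagccaagatTGACGTCAcagttttggtt

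The CREB5 match, from 28409308 to 28409315, lies upstream of the CREB5-206 start at 28409387. The AP-1 words were in 13 of the 23 CREB5 peaks (56.5%), with 17 words in all, and in 7 of the 44 peaks of the relatives (15.9%). They were in 27.8% of all peaks and in 9.82% of peaks within 1 kb of a protein-coding start. The C/EBP-ATF word was in 1 CREB5 peak and 1 ATF7 peak, and in 1.82% of all peaks.

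The central 300 bases of the peaks that carry the differences described below follow, with the AP-1 word in capitals where the window holds one. The first 2 are CREB5 peaks called higher in HMGB2OE libraries, and the last 2 are the peaks of CREB1 and CREM called lower. No CRE or C/EBP-ATF word lies in these windows.

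CREB5 intron 1, chr7:28476971-28477270: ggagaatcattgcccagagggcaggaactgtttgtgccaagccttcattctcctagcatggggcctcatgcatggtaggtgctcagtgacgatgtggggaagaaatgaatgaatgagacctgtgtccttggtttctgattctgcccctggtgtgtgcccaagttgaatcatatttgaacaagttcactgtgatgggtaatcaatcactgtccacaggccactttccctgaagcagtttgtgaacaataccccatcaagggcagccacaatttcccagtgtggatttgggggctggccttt
CREB5 intron 5, chr7:28587206-28587505: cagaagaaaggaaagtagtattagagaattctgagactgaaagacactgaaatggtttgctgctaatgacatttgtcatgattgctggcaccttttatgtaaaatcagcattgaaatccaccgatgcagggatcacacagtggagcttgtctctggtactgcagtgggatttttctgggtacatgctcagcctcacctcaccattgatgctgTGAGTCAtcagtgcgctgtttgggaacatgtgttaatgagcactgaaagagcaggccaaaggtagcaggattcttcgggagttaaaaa
upstream of CREB1, chr2:207513939-207514238: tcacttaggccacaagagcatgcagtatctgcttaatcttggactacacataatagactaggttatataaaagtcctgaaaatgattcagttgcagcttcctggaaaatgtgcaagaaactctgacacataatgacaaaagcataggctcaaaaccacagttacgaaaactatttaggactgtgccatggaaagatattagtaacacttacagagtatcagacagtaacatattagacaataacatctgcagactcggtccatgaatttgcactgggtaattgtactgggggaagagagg
upstream of CREM, chr10:35005966-35006265: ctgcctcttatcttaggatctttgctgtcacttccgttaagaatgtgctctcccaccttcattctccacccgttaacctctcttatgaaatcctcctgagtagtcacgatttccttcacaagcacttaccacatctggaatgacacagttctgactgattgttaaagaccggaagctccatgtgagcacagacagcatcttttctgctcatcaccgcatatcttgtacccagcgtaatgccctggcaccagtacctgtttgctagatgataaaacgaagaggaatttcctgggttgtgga

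CREB5 (ENSG00000146592.17) lies on the plus strand of chromosome 7 from 28299321 to 28825894, a length of 527 kb. Its protein-coding transcripts begin at 8 start sites, and the canonical one, CREB5-201, has 11 exons and begins at 28412518. Accessibility was higher in HMGB2OE libraries over most of the locus. Counts were normalized to the effective library sizes and summed over the 23 peaks, which gave 4420, 4748 and 4923 in EV replicates 1, 2 and 3 and 5632, 5658 and 5633 in HMGB2OE replicates 1, 2 and 3. Every HMGB2OE library stood above every EV library, and the ratio of the means was 1.20. The log2 fold change, HMGB2OE over EV, was above 0 in 20 of the 23 peaks, with a median of 0.25 and a range from −0.52 to 0.89, beside a median of −0.0049 and 49.2% above 0 over the 150117 tested peaks.

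A peak was called when edgeR's quasi-likelihood test gave a Benjamini-Hochberg adjusted p under 0.05 and the fold was at least 1.5. Of the CREB5 peaks, 3 were called higher and 0 lower, beside 1.87% called higher and 1.44% called lower over all tested peaks. Without the limit on the fold, 4 were higher and 1 lower, beside 3.44% higher and 3.03% lower overall. All HMGB2OE libraries lay above all EV libraries in 7 CREB5 peaks and below them in 2, beside 12.6% and 12.5% of all tested peaks. The contrast behind these counts is the one known when the genes were chosen, and nothing is read from them about CREB5 against other genes.

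**Figure D1:**
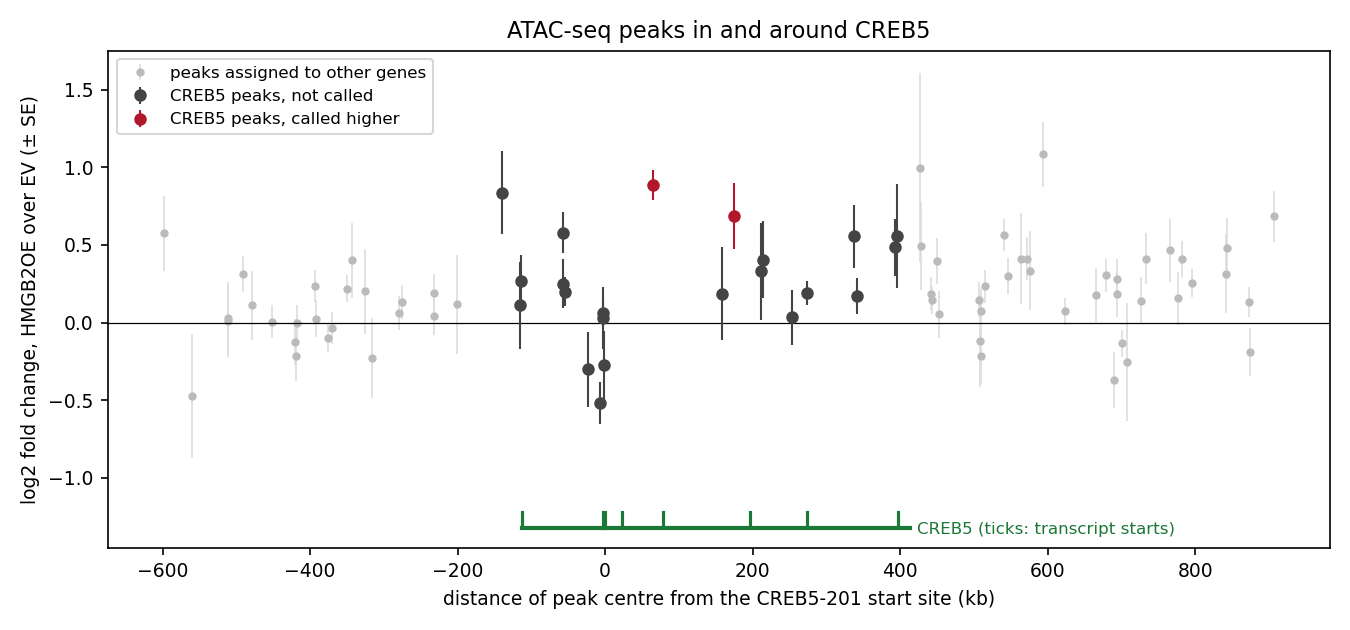
Log2 fold change (HMGB2OE over EV, ± SE from the edgeR fit) of each peak against the distance of its centre from the CREB5-201 start site in kb. Red points are 2 of the 3 CREB5 peaks called higher (the other one is not drawn), dark points the 20 that were not called and grey points peaks assigned to other genes; the green bar is the gene with its 8 start sites as ticks. The 11 CREB5 peaks drawn beyond 10 kb after the start all lie above 0, and the 3 negative CREB5 values lie between −22.7 and −1.5 kb.

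The difference was uneven along the gene. The 12 peaks more than 10 kb past the canonical start had log2 fold changes that were all above 0, with a median of 0.44, and held all 3 calls. The 4 peaks within 10 kb of that start had a median of −0.12, with 2 above 0. Between the start of the gene body and that interval, 4 peaks had a median of 0.23, and the 3 peaks upstream of the body had a median of 0.27.

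The strongest call was the peak from 28476870 to 28477371 in intron 1 of CREB5-201, 64.6 kb past the canonical start. Its normalized counts were 324, 367 and 362 in the EV libraries and 636, 678 and 634 in the HMGB2OE libraries. The groups were far apart, and the highest EV library was well below the lowest HMGB2OE library. The mean rose from 351 ± 23.4 to 649 ± 25.0 (SD, n = 3 each), a log2 fold change of 0.88 ± 0.10 (SE) and a fold of 1.85. At the 86.4th percentile of all peaks this is also the fourth most accessible CREB5 peak. It kept its call under all 13 alternatives, with log2 fold changes from 0.84 to 0.92.

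Another call, from 28587105 to 28587606 in intron 5, rested on 68.1, 58.5 and 119 counts in EV libraries and 104, 163 and 125 in HMGB2OE libraries. EV replicate 3 stood above HMGB2OE replicate 1, so the groups overlapped. Its log2 fold change was 0.69 ± 0.21 (SE), and the call was lost with the DESeq2 test and without EV replicate 1, EV replicate 2, HMGB2OE replicate 2 or HMGB2OE replicate 3, with values from 0.46 to 1.06 when 1 library was left out.

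The start sites of CREB5 differed widely in accessibility. The most accessible CREB5 peak lay at the internal start of CREB5-202, from 28685664 to 28686165, and holds 15 coding bases of that short form. It had 1119, 1292 and 1299 normalized counts in EV libraries and 1419, 1395 and 1427 in HMGB2OE libraries. The groups did not overlap, and the log2 fold change was 0.19 ± 0.08 (SE), not called. The CREB5-206 promoter, from 28408967 to 28409468, carries the CRE shown above and has a GC content of 62.9%. Its counts were 531, 604 and 558 in EV libraries and 603, 581 and 588 in HMGB2OE libraries, which overlap, with a log2 fold change of 0.06 ± 0.09 (SE). A smaller peak beside it, from 28409947, had a log2 fold change of 0.03 ± 0.20 (SE) that was 0.34 without EV replicate 1 and −0.22 without EV replicate 2.

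The starts of CREB5-203 and CREB5-215 had weaker peaks. Just upstream of CREB5-203, whose start opens the gene body, the peak from 28298818 held 113, 99.8 and 84.3 counts in EV libraries and 111, 116 and 131 in HMGB2OE libraries, overlapping ranges with a log2 fold change of 0.27 ± 0.16 (SE). Near the CREB5-215 start, towards the 3′ end, the peak from 28808274 held 43.1, 18.1 and 23.4 against 48.5, 31.7 and 40.5, also overlapping (0.56 ± 0.33, SE). The canonical CREB5-201 start had no peak within 1 kb and the nearest was 1500 bp away. At the starts of CREB5-204, CREB5-205 and CREB5-207 the nearest peaks were 24597, 14010 and 14414 bp away. None of the 5 promoter peaks of CREB5 was called.

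**Figure D2:**
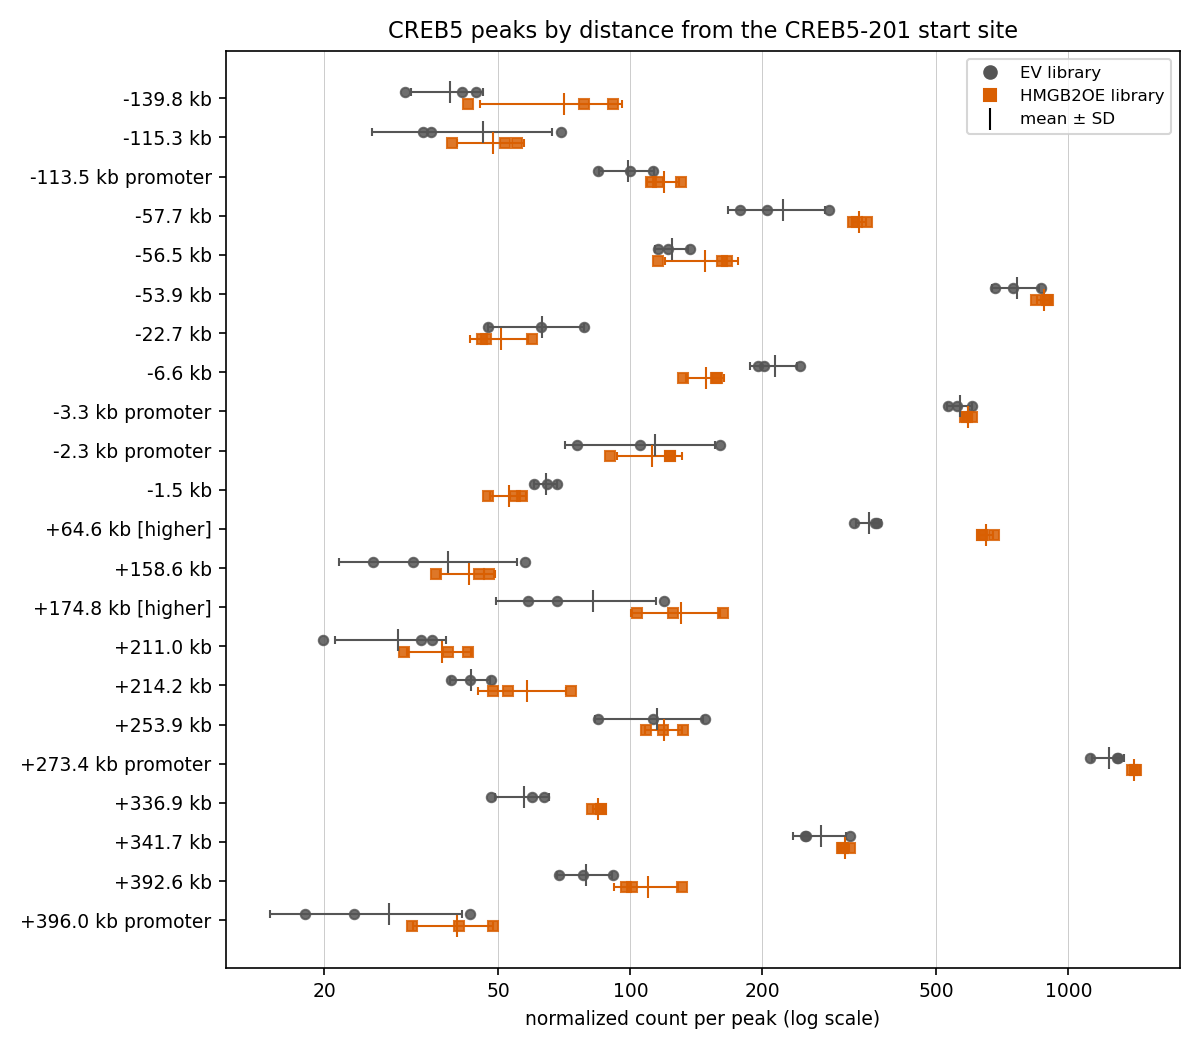
Normalized counts of 22 of the 23 CREB5 peaks on a log axis, in genome order from top to bottom, each named by its distance from the CREB5-201 start site. Grey circles are the 3 EV libraries, orange squares the 3 HMGB2OE libraries and bars the mean ± SD; the call at +64.6 kb has clearly separate groups, whereas at +174.8 kb they overlap.

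By position, the peaks before the canonical start fell into a distal group that tended upward and a proximal group that did not. The outermost, from 28272454, had the third largest fold among CREB5 peaks (0.84 ± 0.27, SE) with 30.6, 41.3 and 44.5 counts in EV libraries and 42.5, 78.4 and 91.2 in HMGB2OE libraries. Its ranges overlapped through HMGB2OE replicate 1, and it was not called. The peak from 28296960 had a log2 fold change of 0.11 ± 0.28 (SE). In intron 1 of CREB5-203, the peak from 28354529 to 28355030 had 178, 206 and 284 counts in EV and 323, 329 and 347 in HMGB2OE libraries. The groups did not overlap, and its log2 fold change of 0.58 ± 0.13 (SE), a fold of 1.49, fell just short of the fold limit. Close to it, the peaks from 28355764 and 28358413 had log2 fold changes of 0.25 ± 0.16 and 0.20 ± 0.09 (SE). The second of these is the second most accessible CREB5 peak, with 681, 747 and 866 counts in EV libraries and 898, 845 and 895 in HMGB2OE libraries. EV replicate 3 lay inside the HMGB2OE range.

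The 3 negative values of the locus lay nearer the canonical start. The peak from 28389617 had a log2 fold change of −0.30 ± 0.24 (SE). The peak from 28405693 to 28406194, 3444 bp before the CREB5-206 start, held 196, 202 and 243 counts in EV libraries and 157, 158 and 132 in HMGB2OE libraries. Every HMGB2OE library was below every EV library, and its log2 fold change of −0.52 ± 0.14 (SE) passed the adjusted p but not the fold limit. This peak holds an AP-1 word and the only C/EBP-ATF word of the locus, from 28405889 to 28405896. The peak from 28410768, nearest to the canonical start, was also lower in all HMGB2OE libraries (−0.27 ± 0.22, SE).

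The remaining peaks of introns 5 to 8 had positive values, from 0.03 to 0.55, and none of them was called. In intron 5, the peaks from 28570821, 28623225, 28626477 and 28666128 had log2 fold changes of 0.18 ± 0.30, 0.33 ± 0.31, 0.40 ± 0.25 and 0.03 ± 0.18 (SE). In intron 7 the peak from 28749205 was higher in all HMGB2OE libraries (48.0 to 63.7 counts in EV and 81.7 to 85.9 in HMGB2OE libraries; 0.55 ± 0.20, SE). Its neighbour from 28753963 overlapped between groups (0.17 ± 0.12, SE). In intron 8 the peak from 28804877 was again higher in all HMGB2OE libraries (0.48 ± 0.18, SE).

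Among the 13 CREB5 peaks with an AP-1 word, 12 had a log2 fold change above 0, with a median of 0.33 and 2 calls. Among the 10 without it, 8 were above 0, with a median of 0.18 and 1 call, the intron 1 peak at +64.6 kb. Over all tested peaks the medians were 0.0053 with the word and −0.0087 without it. Of all tested peaks, 50.9% with the word and 48.6% without it were above 0, and 2.39% and 1.66% were called higher. The 2 sets of CREB5 peaks also differed in level, with median normalized counts of 117 and 57.6.

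Peaks just outside the locus were read for comparison. The last 2 peaks before it, assigned to JAZF1, had log2 fold changes of 0.04 and 0.12, and the first 2 after it, assigned to TRIL, had 0.998 ± 0.61 (SE, at means of 6.65 and 13.2 counts) and 0.49 ± 0.28 (SE). Over the 115 other peaks within 1 Mb, the median log2 fold change was 0.11, with 65.2% above 0, 5 called higher and 1 lower. On the JAZF1 side, 22 peaks had a median of 0.04 with no call. On the other side, medians were 0.27 over 16 TRIL peaks, 0.18 over 14 CPVL peaks and 0.36 over 14 CHN2 peaks, of which 4 were called higher. The median over chromosome 7 was −0.00086. The part of this wider upward shift in the CREB5 values was not tested. With each peak centred on its 10 Mb window the CREB5 median was 0.26. The window is much wider than this stretch, so centring on it could not remove a shift confined there.

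The relatives as a group did not share the upward shift. Of their 44 peaks, 17 had a log2 fold change above 0, beside 49.2% of all tested peaks, and the median was −0.10. Their 10 promoter peaks had 2 above 0, beside 33.9% of all promoter peaks, and their other 34 had 15, beside 51.5% of all other peaks. In all, 1 was called higher and 2 lower, beside 1.87% called higher and 1.44% called lower over all tested peaks. Medians by gene were −0.14 for CREB1, −0.11 for CREM, −0.22 for ATF1, −0.01 for ATF2, 0.02 for ATF7 and 0.10 for ATF4. Summed over the peaks of a gene, HMGB2OE libraries all lay below EV libraries for CREB1 (2884, 3039 and 3017 against 2748, 2755 and 2675, a ratio of the means of 0.915), whereas the groups overlapped for the other 5 genes, with ratios from 0.895 to 0.993.

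**Figure D3:**
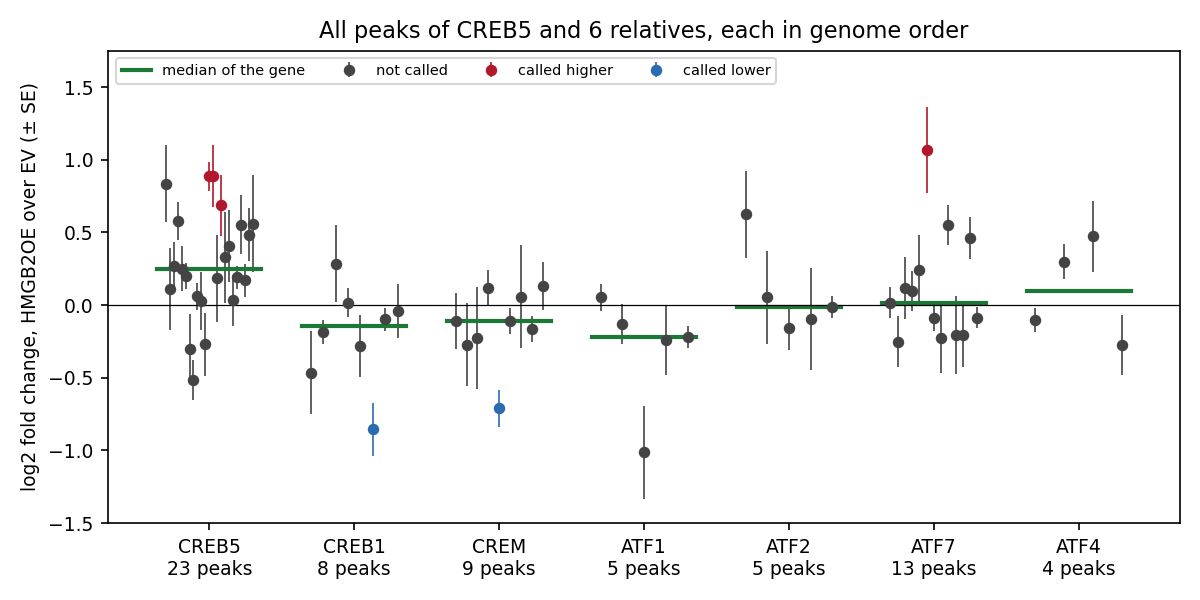
Log2 fold change (HMGB2OE over EV, ± SE) of all 67 peaks, grouped by gene and in genome order within each; the green line is the median of the gene. Red marks the 4 peaks called higher and blue the 2 called lower; 20 of 23 CREB5 peaks and 17 of 44 peaks of the relatives lie above 0.

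The CREB1 branch held both falls. CREB1 encodes the founding cAMP-responsive activator. Its called peak, on chromosome 2 from 207513838 to 207514339, lies 15649 bp upstream of the nearest CREB1 start, inside the long non-coding gene ENSG00000223725. It held 100, 123 and 104 normalized counts in EV libraries and 62.9, 64.2 and 54.0 in HMGB2OE libraries. The groups were well separated, with a log2 fold change of −0.85 ± 0.18 (SE), 1.81-fold higher in EV, and the call was kept under all 13 alternatives. The CREB1 promoter peak, from 207529640 to 207530141, held 1229, 1273 and 1236 counts against 1189, 1229 and 1077. HMGB2OE replicate 2 reached the EV range, and the log2 fold change was −0.10 ± 0.08 (SE). The most accessible upstream peak, from 207394772 to 207395273, held 826, 932 and 956 counts in EV libraries and 833, 762 and 796 in HMGB2OE libraries, with overlap and a log2 fold change of −0.18 ± 0.09 (SE). The other 5 CREB1 peaks overlapped between groups, with log2 fold changes from −0.46 to 0.28.

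CREM encodes both activators and, from an internal promoter, the early repressor ICER. The called peak on chromosome 10 from 35005865 to 35006366 lies 120676 bp upstream of the nearest CREM start. It held 279, 370 and 290 counts in EV libraries and 190, 200 and 187 in HMGB2OE libraries, with EV replicate 2 the highest. The groups did not overlap, the log2 fold change was −0.71 ± 0.12 (SE), and the call was lost without EV replicate 2 (−0.56). The first promoter, from 35126858 to 35127359, had overlapping counts of 681, 814 and 726 in EV and 640, 742 and 682 in HMGB2OE libraries (−0.11 ± 0.09, SE). The internal promoter at the CREM-240 start, from 35195777 to 35196278, carries the CRE shown above and was the more accessible. Its counts were 862, 937 and 871 in EV and 814, 862 and 702 in HMGB2OE libraries. HMGB2OE replicate 2 lay just above EV replicate 1, and the log2 fold change was −0.16 ± 0.09 (SE). The other 6 CREM peaks overlapped between groups, with values from −0.27 to 0.13.

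ATF1, a close relative of CREB1 that can pair with it, had its highest peak in intron 2, on chromosome 12 from 50786681 to 50787182, at the 99.0th percentile of all peaks. Counts there were 1811, 2173 and 2069 in EV libraries and 1805, 1709 and 1692 in HMGB2OE libraries. HMGB2OE libraries were all lower, but EV replicate 1 and HMGB2OE replicate 1 nearly met, and the log2 fold change was −0.22 ± 0.08 (SE), not called. Another intron 2 peak, from 50784906 to 50785407, holds the third CRE. It had 41.7, 34.4 and 55.0 counts in EV libraries and 21.3, 21.7 and 21.4 in HMGB2OE libraries. This was the largest negative log2 fold change among the 67 peaks (−1.01 ± 0.32, SE), with separate groups, but it was not called and passed under 1 of 13 alternatives. The ATF1 promoter, from 50763772 to 50764273, held 595, 721 and 660 counts against 729, 711 and 611, with overlap (0.05 ± 0.09, SE). The other 2 ATF1 peaks, from 50765239 and 50785587, had log2 fold changes of −0.13 and −0.24 with overlapping groups.

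In the ATF2 branch, to which CREB5 belongs, the promoters of ATF7 and ATF2 were the most accessible of the family. The ATF7 promoter, on chromosome 12 from 53625937 to 53626438, held 2087, 2132 and 2085 counts in EV libraries and 2015, 1960 and 1963 in HMGB2OE libraries. HMGB2OE libraries were all lower by a small margin (−0.09 ± 0.07, SE). The ATF2 promoter, on chromosome 2 from 175168144 to 175168645, held 1779, 2012 and 2092 counts against 2059, 1822 and 1953, which overlap (−0.01 ± 0.08, SE). The highest other ATF2 peak, from 175154476 in intron 1, held 121, 129 and 139 counts in EV libraries and 122, 118 and 108 in HMGB2OE libraries, with a log2 fold change of −0.16 ± 0.15 (SE). A weak peak over exon 13, from 175080502, which holds 106 coding bases, was higher in every HMGB2OE library (24.6 to 33.4 counts in EV and 38.3 to 46.8 in HMGB2OE libraries; 0.62 ± 0.30, SE) and was not called. The other 2 ATF2 peaks had log2 fold changes of 0.05 and −0.10 with overlap.

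ATF7 held the only call upward among the relatives, in intron 3 from 53551844 to 53552345. Its counts were 23.6, 33.6 and 18.7 in EV libraries and 42.5, 59.2 and 61.9 in HMGB2OE libraries, on raw counts of only 16 to 71. The groups did not overlap, the log2 fold change was 1.07 ± 0.29 (SE), and the call was lost without EV replicate 1, EV replicate 3, HMGB2OE replicate 2 or HMGB2OE replicate 3, at values from 0.89 to 1.36. In intron 2, the peak from 53591473 held 135, 114 and 128 counts against 189, 170 and 189 with no overlap, and its log2 fold change of 0.55 ± 0.14 (SE) passed the adjusted p but not the fold limit. The highest other ATF7 peak, from 53561547 in intron 2, held 935, 979 and 881 counts against 921, 922 and 779, with overlap (−0.09 ± 0.09, SE). Near the promoter, the intron 1 peak from 53623896 held 147, 127 and 145 counts against 178, 229 and 165, all HMGB2OE libraries above all EV libraries (0.46 ± 0.14, SE), and was not called. The other 8 ATF7 peaks overlapped between groups, with values from −0.25 to 0.24. Of the 13 ATF7 peaks, 12 also lie in the readthrough gene ATF7-NPFF, to which they belong equally.

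ATF4, the effector of the integrated stress response, is a short gene of 2.99 kb on chromosome 22. Its promoter peak, from 39519828 to 39520329, held 946, 1058 and 989 counts in EV libraries and 903, 913 and 983 in HMGB2OE libraries. The ranges overlapped through HMGB2OE replicate 3, with a log2 fold change of −0.10 ± 0.08 (SE). Downstream of the gene, the peak from 39523186 to 39523687 held 257, 231 and 227 counts in EV and 267, 279 and 334 in HMGB2OE libraries. All HMGB2OE libraries were higher, by a log2 fold change of 0.30 ± 0.12 (SE), and the peak was not called. The other 2 downstream peaks overlapped between groups, with values of 0.47 and −0.28.

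**Figure D4:**
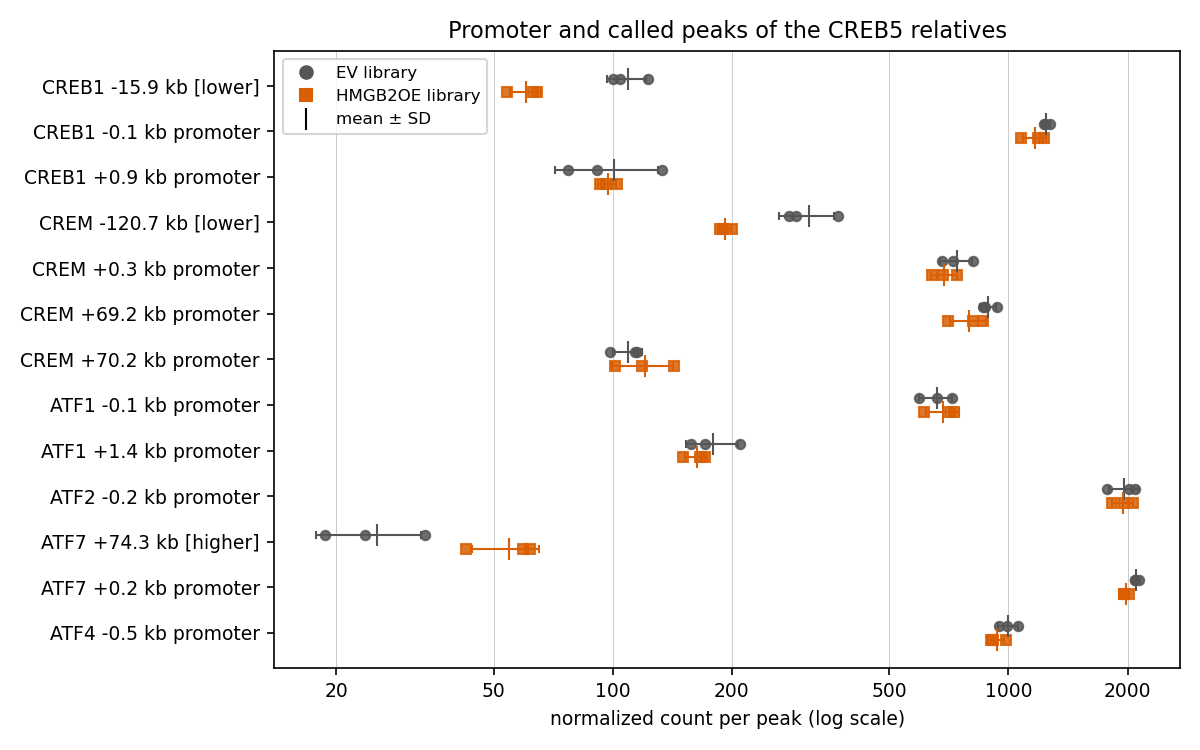
Normalized counts of the promoter peaks and called peaks of the 6 relatives on a log axis, each named by its distance from the canonical start site of the gene along its strand. Grey circles are the 3 EV libraries, orange squares the 3 HMGB2OE libraries and bars the mean ± SD; groups are apart at the 3 called peaks and close together or overlapping at the promoters.

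All peaks are of one width, so levels can be set side by side. Over the 6 libraries, the highest promoter peak of each gene stood at 2040 ± 71.7 normalized counts for ATF7 and 1953 ± 128 for ATF2 (SD, n = 6), whose ranges overlapped. CREB5 (internal CREB5-202 start) and CREB1 followed at 1325 ± 117 and 1205 ± 68.2, also overlapping each other but below ATF2. Their order depended on the group, with means of 1237 for CREB5 and 1246 for CREB1 in EV libraries and 1414 and 1165 in HMGB2OE libraries. ATF4 at 965 ± 57.4, CREM (internal promoter) at 841 ± 78.6 and ATF1 at 671 ± 58.4 came next, with each range overlapping the one before it. ATF4 did not reach the range of CREB1. None of the 15 promoter peaks of the 7 genes was called, and their median log2 fold change was −0.01, beside −0.06 over the 19697 tested peaks within 1 kb of a protein-coding start. The 5 of CREB5 had a median of 0.19, with all 5 above 0. The 10 of the relatives had a median of −0.09, with 2 above 0. Of all promoter peaks, 33.9% were above 0.

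The wider pathway was read from lists of genes by role, with the same assignment of peaks. Other CREB/ATF bZIP genes (16 genes) had 113 tested peaks, of which 3 were called higher and 1 lower (median log2 fold change −0.04). The peaks called higher were an intergenic peak nearest to CREB3L1 (0.88 ± 0.23, SE), one 52086 bp from a start of the stress-induced repressor ATF3, where the mean rose from 486 to 735 counts (0.59 ± 0.12, SE), and one inside JDP2, which pairs with JUN (0.73 ± 0.17, SE). A peak near CREBL2 fell from 441 to 281 counts (−0.65 ± 0.12, SE). The coactivators of CREB (5 genes) had 33 tested peaks and no call, with a median of 0.02, and at an adjusted p under 0.05 with no fold limit the edgeR count was also 0.

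The list of kinases that phosphorylate CREB and ATF proteins or CREB coactivators (18 genes) also holds regulatory subunits of protein kinase A. It had 203 tested peaks, 2 called higher and 2 lower. The peaks were inside SIK2 (1.07 ± 0.23, SE) and CAMK4 (0.68 ± 0.16, SE) in the first case and inside SIK3 (−0.70 ± 0.15, SE) and MAPK9, which encodes a JUN N-terminal kinase (−0.65 ± 0.13, SE), in the second. SIK kinases restrain CREB by phosphorylating its coactivators, whereas CAMK4 phosphorylates CREB itself. Genes of cAMP synthesis and breakdown (19 genes) had 413 tested peaks, 9 called higher and 1 lower (median log2 fold change 0.05). The largest were 3 peaks inside PDE4B, which encodes a cAMP phosphodiesterase (1.21 ± 0.27, 0.76 ± 0.21 and 0.73 ± 0.19, SE), and an intergenic peak nearest to the phosphodiesterase gene PDE3A (0.69 ± 0.17, SE).

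Classical CREB target genes (12 genes) had 258 tested peaks, 6 called higher and 2 lower (median log2 fold change 0.01). An intergenic peak nearest to BDNF, a neurotrophin gene, had the largest rise, from 27.0 to 69.1 counts (1.37 ± 0.26, SE). A peak inside PPARGC1A, a coactivator gene of mitochondrial biogenesis, fell from 131 to 55.1 counts (−1.24 ± 0.19, SE), while 2 intergenic peaks nearest to the same gene were called higher (0.78 ± 0.15 and 0.69 ± 0.19, SE). Intergenic peaks nearest to DUSP1, a MAP kinase phosphatase gene, were also called higher (0.94 ± 0.26, 0.92 ± 0.24 and 0.65 ± 0.14, SE). The other peak called lower lay inside MITF and fell from 197 to 131 counts (−0.59 ± 0.13, SE). Targets of ATF4 (12 genes) had 187 tested peaks, 4 called higher and 2 lower (median log2 fold change 0.0048). Of 2 distant intergenic peaks assigned to PSAT1, a serine synthesis gene, 1 fell (−1.02 ± 0.29, SE) and 1 rose (0.76 ± 0.21, SE). They lay 315089 and 270135 bp from the nearest protein-coding start. Intergenic peaks nearest to VLDLR rose (0.85 ± 0.12, 0.68 ± 0.21 and 0.66 ± 0.11, SE). One near SLC7A11, the cystine transporter gene, fell (−0.74 ± 0.21, SE). For each list the share called may be set beside the 1.87% and 1.44% over all tested peaks, and nothing particular to a list is read from it.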

How the data were processed

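ATAC-seq was done on A375 cells with 3 EV and 3 HMGB2OE libraries, grouped by their labels. The authors deposited whole-number counts per peak and library, neither normalized nor pooled. According to the methods, reads were aligned to hg38 by Bowtie 2, duplicates were removed, MACS2 called peaks with a public melanocyte dataset as control, blacklisted peaks were dropped, nearby peaks were merged to one atlas and featureCounts did the counting. The submitters' processing notes list bcl2fastq 2.17, Trim Galore 0.6.7, cutadapt 4.0 and FastQC 0.12.1. Handling of the Tn5 offset, of reads with several alignments and of libraries at peak calling is not given in the sources used here, which bears most on weak peaks.

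The counts of 150117 of 152800 peaks passed filterByExpr and were fitted in edgeR 4.0.16 (R 4.3.3) with TMM factors of 0.975 to 1.02, no covariate, and the quasi-likelihood F test of HMGB2OE against EV. Calls needed an adjusted p under 0.05 and a fold of at least 1.5. An SE is the size of a log2 fold change over the root of its F. Normalized counts were scaled from each effective library size to the mean of the 6. TMM centres the fold changes near 0, so a change shared by most peaks would not be seen. Promoter peaks lie within 1 kb of a protein-coding start. The fit was tested on simulated data.

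Named peaks are, for CREB5, every called peak, the highest promoter peak of each start and the 3 highest peaks; for each relative, its highest promoter peak, its calls and its highest other peak; and at most 4 called peaks a pathway list. Other CREB5 peaks were listed by position. Peaks outside this rule were picked once their values had been seen. They were near a limit, held a CRE, did not overlap, or lay inside MITF or near PPARGC1A, DUSP1 or VLDLR. One marker gene, and the sequence and values of 1 called CREB5 peak, are not reported here. The genes, lists and tests were chosen with earlier results of these data known. Alternatives were library size only, DESeq2 size factors, the DESeq2 1.42.0 Wald test, the replicate number as a block, no filter on low counts, a minimum of 10 counts per library, centring on 10 Mb windows, no fold limit, assignment to the nearest start of any transcript, and leaving out each library in turn.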

Additional observations from a re-analysis of the deposited data

How the results depend on the processing

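Over the alternatives, 62 recomputed counts of calls stayed within 1.5 times the reported count and 12 did not. Without a fold limit, CREB5 peaks called lower numbered 1 in place of 0, relative peaks called higher 2 in place of 1, and all calls 9710 in place of 4966. Centring on 10 Mb windows also gave 2 relative peaks higher. With assignment to the nearest start of any transcript, 0 relative peaks were higher and 1 lower, since the peaks were then counted under other genes. With 1 library left out, CREB5 peaks called higher numbered 1 (without HMGB2OE replicate 2) to 5 (without HMGB2OE replicate 1), relative peaks higher 0 (without EV replicate 3 or HMGB2OE replicate 3) to 1, and relative peaks lower 1 (without EV replicate 2) to 2. Under the replicate block, 5 CREB5 peaks were called higher in place of 3, and all calls were 3192 higher and 2383 lower in place of 2800 and 2166. EV and HMGB2OE libraries share only a number: their same-number correlations of deviations were −0.0886, 0.185 and 0.125, and the numbers were not taken to pair them. No fold change of a called peak changed sign under any alternative. The causes of these moves, apart from the changed assignment and limits, were not tested. The least deep library, EV replicate 1, and raw counts under 100 in many intronic peaks limit what can be detected.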
